A study of Homo sapiens with 4 samples.

Results

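The expression of 8 genes of the complement system was compared between control MCF10A.B2 cells and cells of the same line in which a shRNA to PAK1 was expressed: the proteases C1R, C1S and CFB, the central component C3, and the regulators CFI, CD46, CD55 and CD59. The genes were found by name among the spots of the array that are not controls, where they were read by 12 of 34127 probes and stood for 8 of 27193 gene names. Of the 8 genes, 7 were expressed at a higher level in the PAK1 shRNA cells and none at a lower level, in a comparison in which 30.6% of all 21988 genes tested were called higher and 32.0% lower. The rise was largest in CFB, the protease that drives the alternative pathway, which was 21.5-fold higher, while the level of CD59, which blocks the last step of complement attack, differed by 1.04-fold and did not pass the test.

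Complement is a set of blood and tissue proteins that tag particles for removal and punch holes in membranes. In the classical pathway, C1R activates C1S, which cleaves C4 and C2 to build an enzyme that splits C3. In the alternative pathway, C3 fragments bind CFB, and the resulting enzyme splits more C3 in an amplifying loop. Both routes lead to the terminal components, which form the membrane attack complex. Host cells are protected by CFI, a secreted protease that inactivates C3 and C4 fragments with the help of cofactors such as CD46, by CD55, which makes the C3-splitting enzymes fall apart, and by CD59, which stops assembly of the membrane attack complex. The liver makes most of the circulating proteins, but epithelial cells also transcribe many of these genes and raise them in response to interferons and inflammatory cytokines.

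MCF10A.B2 is a human mammary epithelial line, engineered with an ErbB2 receptor that the compound AP1510 switches on by pairing its molecules. PAK1 is a serine-threonine kinase downstream of the GTPases Rac and Cdc42. There were 2 control arrays and 2 PAK1 shRNA arrays, each hybridized in 1 colour, and both groups had been grown in medium with 5% horse serum, starved of serum for 3 h and given AP1510 for 15 min. The shRNA is inducible. The labels do not say whether the control cells were parental or uninduced, no array of a non-targeting shRNA was analysed here, and the labels do not say whether the replicates came from separate cultures, so the p-values measure only the spread between these samples, which may be technical. The series description speaks of tumour derived cells, whereas the study names the cell line, which is followed here. PAK1 itself had normalized log2 intensities of 11.19 and 11.27 in control cells and 10.44 and 10.51 in PAK1 shRNA cells, a log2 fold change of -0.76 (SE 0.08, adjusted p = 0.000182, limma), so that 0.592 of the control signal remained.

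Of the probes on an array, between 78.9% and 83.2% were well above background, and all 12 complement probes were so on all 4 arrays, with none saturated. The number of arrays limits the precision. All 8 markers of basal mammary epithelium that were checked, among them KRT5, KRT14 and TP63, were well above background in both groups, with summed unlogged normalized intensities of 458567 to 517100 per array. Markers of other cell types that make complement were checked as well. All 7 leukocyte markers on the array were well above background in both groups; 4 of them were higher in PAK1 shRNA cells and none was lower, with log2 fold changes of 3.75 for CD68, 1.23 for CD14 on 3 arrays, 0.65 for CSF1R and 0.46 for ITGAM, while the others, among them PTPRC (0.12) and CD3E (0.14), did not pass the test. The leukocyte sum over the 6 markers measured on every array was 2879 and 2651 in control cells and 8996 and 10649 in PAK1 shRNA cells. Of 8 hepatocyte markers, 3 were higher and none lower, FGB, TF and TTR were well above background in neither group, and the sum over 4 markers was 19699 and 16169 against 23551 and 25954. Of 8 fibroblast markers, 3 were higher and 1 was lower, and COL1A2, COL3A1, PDGFRA and THY1 were well above background in neither group. The higher ones were LUM (1.79), COL1A1 (0.87) and DCN (0.87), and the fibroblast sum over 4 markers was 4715 and 3973 in control cells and 7973 and 7787 in PAK1 shRNA cells. Of 6 endothelial markers, 1 was higher (VWF, 0.37) and 2 were lower (PECAM1, -1.56, and TEK, -0.33), CLDN5 was well above background in neither group, and the sum over 4 markers was 1043 and 1086 against 854 and 820. TEK, and PDGFRB, the fibroblast marker called lower, were well above background on both arrays of the control group only. APOA2, among the higher hepatocyte markers, was so in the PAK1 shRNA group only. Each entered the test through the group where it is higher, so these calls are not settled. The part of these cell types in the complement results was not tested. In bulk RNA of this kind, fewer cells of a type and less RNA per cell cannot be told apart.

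The array reads each gene through probes of 60 bases, and those of 4 genes are given here as examples of each role: a protease of the classical and one of the alternative pathway, the central component and a membrane regulator. Each is written 5′ to 3′ as it is designed on the array, with hg19 coordinates from the array annotation, which assigns each to a transcript of the gene but does not say whether it lies in coding sequence or UTR. The CFB probe matches chr6:31918992-31919147 on the plus strand, a stretch of 156 bases, so it joins neighbouring exons. The C3 probe lies at chr19:6686136-6686195 and the C1R probe at chr12:7187836-7187895, both on the minus strand, and the CD55 probe at chr1:207510071-207510130 on the plus strand.
CFB probe: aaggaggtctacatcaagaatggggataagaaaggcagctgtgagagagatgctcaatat
C3 probe: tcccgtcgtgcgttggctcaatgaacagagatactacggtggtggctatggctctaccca
C1R probe: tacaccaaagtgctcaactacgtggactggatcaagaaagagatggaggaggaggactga
CD55 probe: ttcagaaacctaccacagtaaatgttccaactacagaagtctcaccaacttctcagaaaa

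Promoter sequence from RefSeq (GRCh38.p14), running from 250 bases before to 50 bases after a transcription start, was at hand for 6 of the 8 genes. C1R and CD46 had 2 windows each and CD59 had 4. Those given here are 3 windows in which a match to one of the first 2 motifs below was found. The windows were searched on both strands for an interferon response element type motif (GAAA, any 2 bases, GAAA), which 3.57% of 35116 promoter windows of all genes contained, for a gamma-activated type motif (TTC, any 3 bases, GAA), which 7.66% contained, and for an NF-kB type motif (GGG, any 5 bases, CC), which 58.7% contained. The promoter of CFB, at chr6:31945845-31946144 on the plus strand, held a match to each of the first 2 motifs, TTTCTGTTTC from position -140 relative to the start and TTCCGGGAA from position -92, as well as 4 matches of the NF-kB type. Matches of the NF-kB type also stood in other windows, with 5 in each window of CD46, 3 in the CD59 window printed here, 1 in each window of C1R and in that of CD55, and 0 in that of CFI. The window of C1R at chr12:7091844-7092143, on the minus strand, held the gamma-activated type match TTCCTGGAA from position -86. A window of CD59 at chr11:33736374-33736673, on the minus strand, held TTCTCAGAA from position -184, so a match of this type also stood before the gene that did not pass the test. An overlapping CD59 window, at chr11:33736430-33736729, held the same match from position -128 and is not printed. The remaining windows of CD59 and C1R held neither of the first 2 motifs. The windows of CFI, CD46 and CD55 held neither of the first 2 motifs. These are matches of letters, and binding of a factor was not measured. Capitals mark the matches to the first 2 motifs.
CFB promoter: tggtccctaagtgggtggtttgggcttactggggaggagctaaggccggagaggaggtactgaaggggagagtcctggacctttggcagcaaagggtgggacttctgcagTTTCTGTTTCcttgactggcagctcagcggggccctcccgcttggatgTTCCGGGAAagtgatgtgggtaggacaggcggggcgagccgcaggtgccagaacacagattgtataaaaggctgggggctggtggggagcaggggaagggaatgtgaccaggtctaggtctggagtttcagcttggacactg
C1R promoter: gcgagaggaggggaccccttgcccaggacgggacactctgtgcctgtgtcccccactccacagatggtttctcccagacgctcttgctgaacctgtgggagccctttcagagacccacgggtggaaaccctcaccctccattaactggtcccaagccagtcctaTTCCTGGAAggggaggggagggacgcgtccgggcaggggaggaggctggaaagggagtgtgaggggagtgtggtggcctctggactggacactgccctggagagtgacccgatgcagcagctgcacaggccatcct
CD59 promoter: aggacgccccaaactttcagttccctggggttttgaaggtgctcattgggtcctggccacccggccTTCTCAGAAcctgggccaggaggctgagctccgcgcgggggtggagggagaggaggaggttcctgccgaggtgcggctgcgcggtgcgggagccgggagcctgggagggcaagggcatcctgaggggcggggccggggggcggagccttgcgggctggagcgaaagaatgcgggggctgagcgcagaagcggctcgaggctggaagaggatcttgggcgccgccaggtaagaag

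The values below are log2 intensities after background correction and quantile normalization, and are given per array in the order control 1, control 2, PAK1 shRNA 1 and PAK1 shRNA 2. Fold changes compare PAK1 shRNA with control cells, and adjusted p-values come from limma with Benjamini-Hochberg adjustment over 21988 genes, with a threshold of 0.05. Since calls were so common over all genes, and both PAK1 shRNA arrays lay above both control arrays in 41.9% of them, a call alone sets a gene little apart in this comparison. Changes of at least 2-fold were called in 8.80% of genes in the higher direction and in 9.09% in the lower. Of the complement genes, 7 of 8 were called higher, 5 of 8 by at least 2-fold, and all 7 genes measured on every array had both PAK1 shRNA arrays above both control arrays. Their median log2 fold change was 1.80, against 0.02 over all genes tested. For any single gene, the smallest p that an exact two-sided permutation test can give with 2 arrays a group is 0.333.

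**Figure D1:**
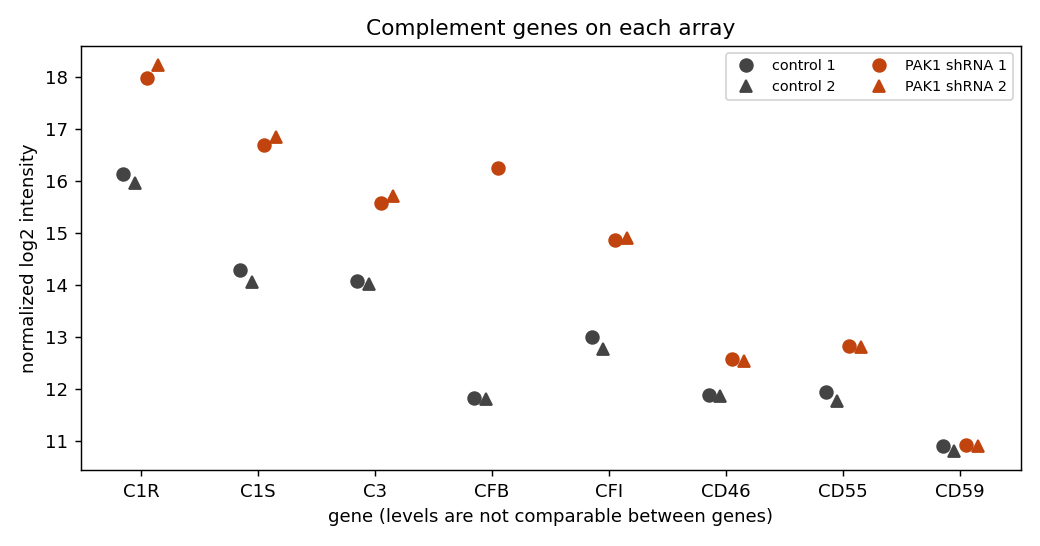
Normalized log2 intensity (vertical axis) of the 8 complement genes on each of the 4 arrays, 1 point per array. CFB has 3 points because its spot on PAK1 shRNA 2 was left out for a flagged local background; the groups lie far apart for CFB, C1S, C1R, CFI and C3 and close together for CD59, at 10.82 to 10.93.

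Both classical pathway proteases were expressed at a higher level in PAK1 shRNA cells. C1R had log2 intensities of 16.14, 15.96, 17.99 and 18.23. The arrays of a group lay close together and the groups did not overlap. The log2 fold change was 2.06 (SE 0.11, adjusted p = 1.19e-05 from limma), a rise of 4.16-fold with a 95% interval of 3.47 to 5.00. The other C1R probe, at chr12:7187567-7187626, gave a log2 fold change of 2.19. C1S, the substrate of C1R and the protease that cleaves C4 and C2, had log2 intensities of 14.29, 14.06, 16.69 and 16.84. Again the groups did not overlap. Its log2 fold change of 2.59 (SE 0.11, adjusted p = 4.14e-06 from limma) corresponds to 6.02-fold (95% interval 5.05 to 7.18). The other probe of C1S, at chr12:7171593-7171652, gave 2.02, and this difference of 0.57 was the widest between the probes of one of the 8 genes. That probe read 533 and 410 scanner units in control cells and 1297 and 1452 in PAK1 shRNA cells, above the median spot of each array.

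C3 carries the signal of every pathway. Its log2 intensity was 14.08, 14.03, 15.59 and 15.71, so the groups were separated by many times the spread within them. The log2 fold change was 1.60 (SE 0.08, adjusted p = 8.98e-06 from limma), a rise of 3.02-fold (95% interval 2.65 to 3.45), the smallest among the 5 secreted proteins. The other C3 probe, at chr19:6679177-6679434, had a flagged local background on control 1 and PAK1 shRNA 2. On the remaining array of each group it gave a log2 fold change of 1.67, and 1.69 with the flagged spots kept.

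CFB rose most of the 8 genes and ranked 79 among the rises of all genes tested. Its log2 intensity was 11.84 and 11.81 in control cells and 16.26 on PAK1 shRNA 1. The local background of its only spot on PAK1 shRNA 2 was flagged, so that array does not enter the fit and the value rests on 3 arrays. The SE and interval of CFB therefore hold no spread between PAK1 shRNA arrays and assume that of the control arrays. The fitted log2 fold change was 4.43 (SE 0.09, adjusted p = 1.69e-06 from limma), or 21.5-fold (95% interval 18.3 to 25.4). Kept in, the flagged spot read 16.87, and the log2 fold change became 4.76 (SE 0.18, adjusted p = 2.54e-06 from limma), or 27.0-fold, which is outside the interval from 3 arrays. The scanner read the CFB spot at 4942 and 3789 units in control cells and at 69173 and 101289 in PAK1 shRNA cells, so the separation was present before any normalization.

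The regulators differed widely among themselves. CFI, which cuts C3b and C4b, had log2 intensities of 13.01, 12.78, 14.86 and 14.92, with no overlap between groups. It rose by 1.99 on the log2 scale (SE 0.10, adjusted p = 7.88e-06 from limma), or 3.98-fold (95% interval 3.39 to 4.67), and its other probe, at chr4:110670656-110670715, gave 2.06. The regulators that sit on the cell surface had smaller fold changes.

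CD55, which dissociates the C3-splitting enzymes, had log2 intensities of 11.95, 11.78, 12.84 and 12.81. The PAK1 shRNA arrays lay above the control arrays by about the same amount, and the log2 fold change was 0.96 (SE 0.08, adjusted p = 0.0001 from limma), or 1.95-fold (95% interval 1.69 to 2.24). CD46, the membrane cofactor of CFI, had 11.89, 11.87, 12.59 and 12.55. Its arrays agreed closely within each group, and the log2 fold change was 0.69 (SE 0.07, adjusted p = 0.000202 from limma), or 1.61-fold (95% interval 1.43 to 1.81). CD59 had 10.91, 10.82, 10.93 and 10.92. The PAK1 shRNA arrays stood barely above the control arrays, and the log2 fold change of 0.06 (SE 0.07, adjusted p = 0.496 from limma) had a 95% interval of 0.92 to 1.18-fold. Under median centring in place of quantile normalization the CD59 value was -0.06.

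**Figure D2:**
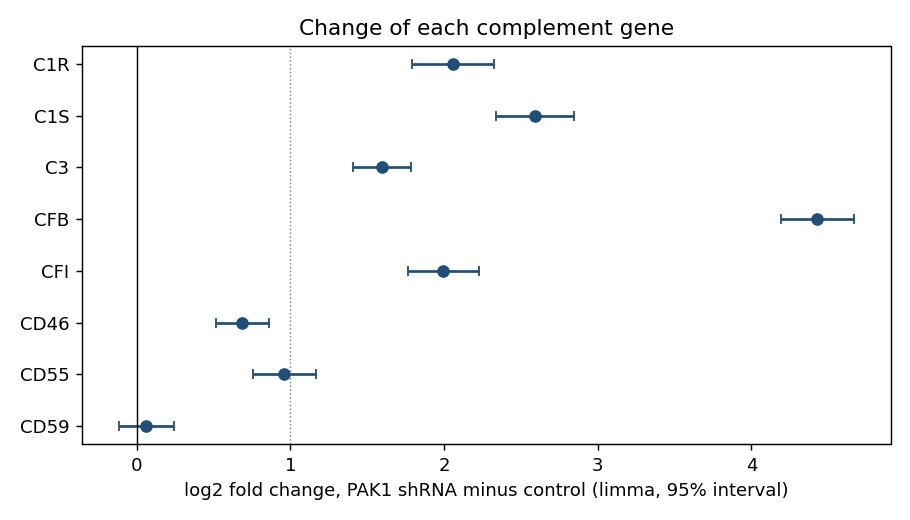
Log2 fold change of each complement gene, PAK1 shRNA minus control (horizontal axis), from limma with 95% intervals; the dotted line marks a change of 2-fold. The 5 secreted proteins lie between 1.60 and 4.43, and CD55, CD46 and CD59 between 0.06 and 0.96.

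Ordered by the place of the protein, the 5 secreted members rose by 3.02 to 21.5-fold, and the 3 membrane-bound regulators differed by 1.04 to 1.95-fold. The intervals of the secreted members, the lowest of which starts at 2.65-fold, did not reach those of the membrane-bound regulators, the highest of which ends at 2.24-fold. The difference between these classes was not tested. This order was read in the 8 genes alone. The other complement genes given below did not all follow it, among them C5 (-2.09), a secreted protein, and CSMD3 (2.30), a membrane regulator.

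Because quantile normalization moves every array onto one distribution, the brightness before normalization was also examined. The control arrays were brighter as a whole, with median spot brightness of 501 and 384 units against 326 and 319 on the PAK1 shRNA arrays. The 5 secreted members were brighter in PAK1 shRNA cells even so. C1R went from 92202 and 66126 units in control cells to 223970 and 259050 in PAK1 shRNA cells, and CFI from 10902 and 7403 to 25696 and 26990. CD55 was brighter on both PAK1 shRNA arrays by a smaller margin, with 5324 and 3700 units in control cells and 6161 and 6101 in PAK1 shRNA cells. For CD46, with 5129 and 3936 units in control cells and 5182 and 5035 in PAK1 shRNA cells, the groups overlapped, and CD59 was dimmer in PAK1 shRNA cells, with 1606 and 1575 units against 2614 and 1911. The rise of CD46 is therefore relative to the general brightness of the arrays.

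**Figure D3:**
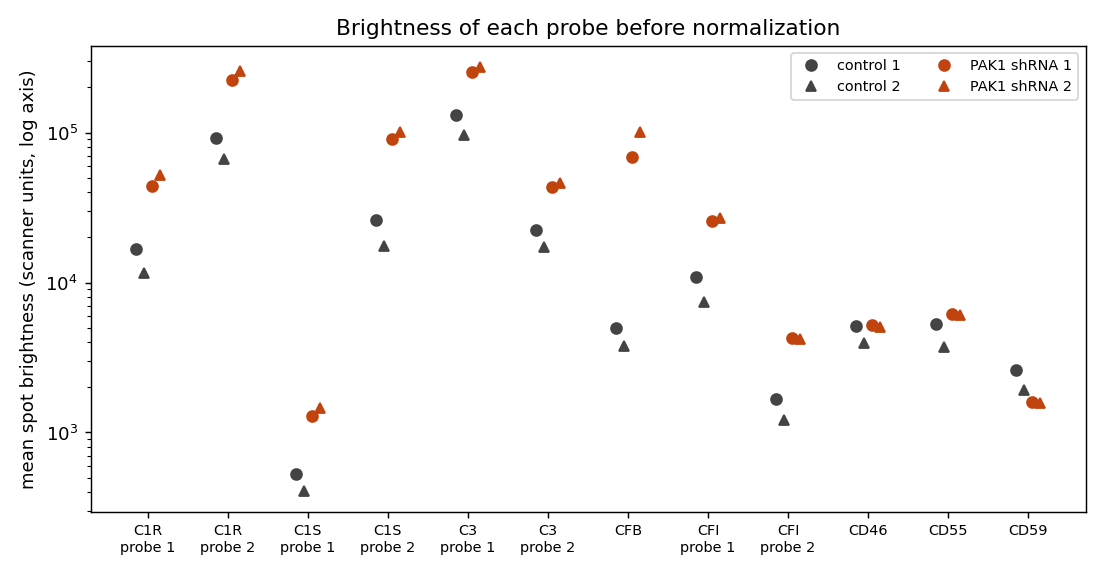
Mean spot brightness in scanner units (vertical axis, log scale) of the 12 complement probes on the 4 arrays, before normalization. Probes of one gene rise together; the CD46 groups overlap, and the CD59 spots are dimmer in PAK1 shRNA cells.

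Some of the genes are neighbours. The C1S and C1R probes stand 9.7 kb apart on chromosome 12, and C1RL, a related protease 59.7 kb beyond C1R, rose by 0.86 on the log2 scale (SE 0.09, adjusted p = 0.000185 from limma). For C1RL, a further probe gave 0.57. On chromosome 6 the probe of C2 lies 5.7 kb before that of CFB and the probe of C4B 83.2 kb after it. C2, the classical pathway counterpart of CFB, lay between 8.41 and 8.85 on the 4 arrays without overlap of the groups, with a log2 fold change of 0.31 (SE 0.09, adjusted p = 0.0196 from limma), far below the 4.43 of CFB beside it. This call of C2 was lost in 6 of the alternative settings, and a further, dimmer probe of C2 gave 0.18 and did not pass the test. C4B, whose product is cut by C1S, had 11.41, 11.28, 13.73 and 13.82, a rise of 2.43 (SE 0.08, adjusted p = 2.11e-06 from limma). The C4B probe is also assigned to a transcript of C4A, so the copies cannot be told apart.

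The rest of the pathway was read from a list of 53 other complement genes, of which 52 were on the array and 37 were well above background on both arrays of a group. Of the 37 tested, 20 were higher, 6 lower and 11 did not pass the test, beside 30.6% higher and 32.0% lower over all genes, and their median log2 fold change was 0.29. The counts by role below rest on few genes each and are read against the same shares. At least 2-fold changes were called in 10 higher and 2 lower genes, beside 8.80% and 9.09% over all genes. Among recognition molecules and proteases of the classical and lectin pathways, 5 of 9 tested were higher and 1 was lower. COLEC11, a lectin of the collectin family, had 6.43, 6.37, 8.77 and 8.87, but it was well above background on only 1 of the 2 control arrays and entered the test through the PAK1 shRNA group, so the size of its change is not settled.

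Of the terminal components, 3 of 5 tested were higher and 1 was lower. C5, which is cleaved to start the membrane attack complex, had log2 intensities of 9.42, 9.39, 7.27 and 7.37. It fell by 2.09 on the log2 scale (SE 0.08, adjusted p = 2.76e-06 from limma), the largest fall on the list. C9, which forms the pore, was dim, with 6.61, 6.60, 7.09 and 6.99, and rose by 0.44. Fold changes of such dim spots depend more on the background correction. In the alternative pathway, CFP, which stabilises the C3-splitting enzyme, rose by 0.78, whereas CFD, the protease that cuts CFB, fell by 0.75.

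Soluble regulators were higher in 5 of 9 tested genes and lower in none. CFHR3, which encodes a plasma protein that binds C3 fragments, had 12.22, 12.11, 14.63 and 14.63, so the groups were far apart, and it rose by 2.47 (SE 0.08, adjusted p = 1.57e-06 from limma). CFHR4 rose by 1.49, but its probe is also assigned to CFHR3 transcripts, so their signals are shared in part. CLU, an inhibitor of the membrane attack complex, rose by 0.88. SERPING1, the inhibitor of C1R and C1S, rose by 0.91 (SE 0.10, adjusted p = 0.000261 from limma) on its brightest probe and by 1.93 and 1.79 on its other probes, so the size of its rise depended on the probe. C4BPB stayed below the well above background limit in both groups.

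Among membrane regulators outside the 8 genes, 2 of 5 tested were higher and 1 was lower. CSMD3 rose by 2.30 and CR2, the receptor of C3d on B cells and some epithelia, by 1.02, while THBD (thrombomodulin) fell by 1.01. The other probe of CR2 gave 0.59, so its 2-fold call depended on the probe. Among receptors for complement fragments, 4 of 7 were higher and 2 were lower. C3AR1, the receptor of C3a, had 9.15, 9.19, 11.44 and 11.92, a rise of 2.51 (SE 0.15, adjusted p = 2.03e-05 from limma). C5AR1, the receptor of C5a, fell by 0.65, and C1QBP by 0.71. The integrin chains ITGAX and ITGB2, which pair to form a receptor of C3 fragments, rose by 2.32 and 2.27, and ITGAM, another partner of ITGB2, by 0.46. A further probe of ITGB2 gave 0.39. These integrins are expressed mainly by leukocytes, whose marker values are given above.

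**Figure D4:**
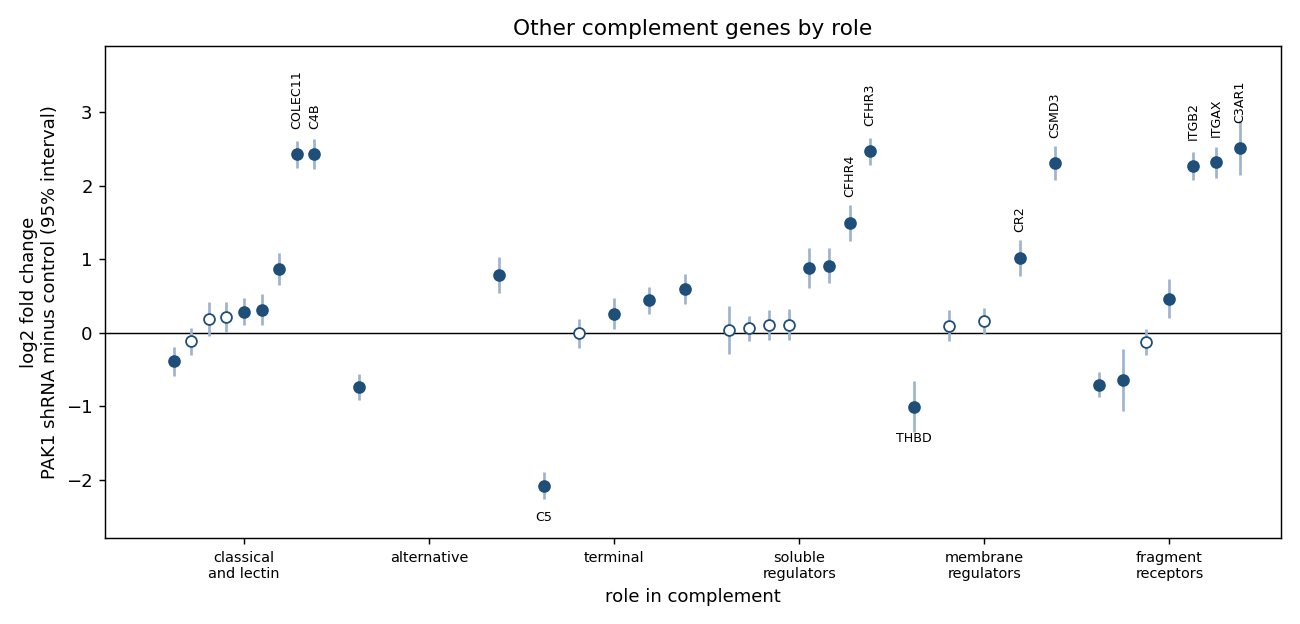
Log2 fold change, PAK1 shRNA minus control, with 95% interval (vertical axis) of 36 of the 37 other complement genes tested, grouped by role; filled points passed an adjusted p of 0.05 and open points did not. Genes changed by at least 2-fold are named; C5 is the lowest at -2.09 and C3AR1 the highest at 2.51.

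The sizes of some of these changes moved with the background correction or the choice of probe by over 1.5 times. With normexp fitted on all spots, the log2 fold change of COLEC11 was 1.41, of SERPING1 0.57 and of C5 -1.36, of CFHR4 0.86, of CR2 0.64 and of ITGAX 1.54. With the processed signal of the scanner software, COLEC11 gave 4.60 and CFHR4 2.51, and with the mean over its probes ITGB2 gave 1.33. The direction was kept for each of them.

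The genes outside the complement lists whose profile over the 4 arrays, centred on its own mean, lay nearest to that of C3 were MKNK1, a kinase acting on the translation factor eIF4E, at a Euclidean distance of 0.0371, NEU1, a lysosomal sialidase, at 0.0385, and CFLAR, an inhibitor of caspase-8 activation, at 0.0403. Their log2 fold changes were 1.61, 1.59 and 1.56, against 1.60 for C3. With 4 arrays, nearness of this kind reflects mainly a like difference between the groups.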

How the data were processed

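RNA of 2 control and 2 PAK1 shRNA samples was labelled with Cy3 and hybridized to Agilent whole genome arrays on 1 slide, and samples were grouped by their labels. The authors deposited the spot intensity as Agilent Feature Extraction 9.5 wrote it, without normalization between arrays, and a table of log2 values, which was used as an alternative. The 8 members and all gene lists were chosen with earlier results of these data known.

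Spots with flagged local background or feature outlier flags were set missing, since a few spots of very high background moved the normexp fit on the control arrays. Mean signals were background corrected with normexp (offset 50), quantile normalized and tested with limma 3.58.1 (R 4.3.3), and p-values were adjusted by Benjamini-Hochberg over all genes. Genes had to be well above background on both arrays of a group, and the brightest probe measured on all 4 arrays stood for its gene. The test was also run on simulated data with independent noise of the fitted size. Such data cannot show how the test fares with technical replicates or shared array effects. Figures were drawn with matplotlib 3.10.9.

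Named genes were the 8 members, PAK1, other complement genes past the threshold by at least 2-fold, SERPING1, C4BPB, CLU, C2 and C1RL, and the 3 genes nearest to C3. A few items that the rule takes in are counted but not reported here. CFP, CFD, C9, C5AR1, C1QBP and ITGAM were added after their values were seen. Alternatives changed the background correction, the signal column, the normalization, the filter, the treatment of flags, the choice of probe, the test and its threshold, added the replicate number as a block, or left out an array. 1 alternative, which kept the spots with flagged background, was added after the data were seen. C4A was not matched by name, and C5AR2 is named GPR77 on the array.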

Additional observations from a re-analysis of the deposited data

How the results depend on the processing

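The 8 complement genes had 158 values under 20 alternatives, of which 155 kept their direction and their side of the threshold. CD59 turned to a log2 fold change of -0.060 under median centring (adjusted p = 0.544 from limma), where the median of all genes was 0.14. CD46 (0.69) and CD55 (0.96) fell short of a 2-fold threshold. An unpaired t-test, which the methods name for the study in general while they name limma for the arrays, was run with Benjamini-Hochberg adjustment. It called 4233 genes higher and 4627 lower, and could not be fitted for CFB. Of the 8 members it called 6 higher. Of the other complement genes it called 14 higher and 3 lower, beside 20 and 6 in the main fit. A 2-fold threshold left 1936 genes higher and 1999 lower, and 10 and 2 of the other complement genes. The 16 other complement genes that the naming rule takes in had 319 values, of which 11 lost the call, 6 of them for C2, and none was reversed. CLU (adjusted p = 0.0621) and THBD (adjusted p = 0.0854) lost it under that t-test.

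Leaving out each array in turn gave log2 fold changes of 1.94 to 2.18 for C1R, 2.47 to 2.71 for C1S, 1.53 to 1.66 for C3, 4.41 to 4.44 for CFB, 1.88 to 2.11 for CFI, 0.67 to 0.71 for CD46, 0.88 to 1.05 for CD55 and 0.02 to 0.11 for CD59, with the lone array of a group assumed to vary like the other group. Every CFB value rests on PAK1 shRNA replicate 1, so its narrow range holds no spread of that group. With a control array left out, CFB had 1 array in each group and no spread of its own. Without PAK1 shRNA replicate 1, CFB had no value. With the replicate number as a block, CFB was 4.41, and no call of the other genes among the 8 changed. For CFB this fit compares the replicate 1 arrays alone and leaves no spread to measure, so it cannot check the call. The labels do not say whether the numbers pair the samples. Deviations from the group mean on control 1 and PAK1 shRNA 1 had a correlation of r = 0.0123 over 21248 genes. With 2 arrays a group this value cannot exclude pairing.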
